A study of Mus musculus with 12 samples.

Results

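Rab proteins are small GTPases that sit on the membranes of one organelle or another and switch between a GTP-bound form, which recruits motors, tethers and fusion factors, and a GDP-bound form, which is carried back to the cytosol. Exchange factors (GEFs) load them with GTP, GTPase-activating proteins with a TBC domain switch them off, and effectors carry out the work. In macrophages they move receptors from the cell surface to early endosomes and back, turn phagosomes into lysosomes and carry secretory cargo out of the cell. The Rab genes were taken as all genes whose symbol is Rab followed by a number and, where present, a letter, and 59 of the 38887 genes in the deposited tables met this rule. The rule was applied because one of them, Rab4a, had a higher level in the knockout, so the comparison of knockout with wild type is given for Rab4a as a description, without a test.

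The samples were cultures of bone marrow-derived macrophages (BMMs), marrow cells of the mouse matured with the growth factor M-CSF. The wild-type (WT) animals of the study came from the same litters and had no loxP sites in the gene. They could carry or lack Cre, the recombinase that cuts at such sites, and which of the sequenced WT mice carried it is not given. Knockout (KO) mice had loxP sites around exons 4 and 5 of Igf2bp2, which codes for an RNA-binding protein, and Cre inserted into Lyz2, a gene that is active in myeloid cells but not in these alone. Cells of each genotype were left untreated (M0) or given IL-4 at 20 ng/ml for 8 hours (M2), with 3 libraries per group and 12 in all, each of 20011792 to 39632770 estimated counts. All groups had been exposed to M-CSF. In bulk RNA, fewer cells of a type and less RNA per cell cannot be told apart.

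The whole-gene value of Igf2bp2 did not mark the deletion in untreated cells, with means of 56.8 TPM (a transcript level scaled to gene length and library size) in WT M0 and 52.8 in KO M0, and was lower in KO than in WT after IL-4 (log2 fold change -0.65 ± 0.13, SE, edgeR adjusted p = 0.0285). The paper reports from Western blot and qPCR that Igf2bp2 protein and mRNA were almost undetectable in KO BMMs. Lyz2, the site of the Cre insertion, had 12800 TPM in WT M0 and 40.5 in KO M0, and 6840 in WT M2 and 17.7 in KO M2. KO and WT thus differed in Lyz2 as well as in Igf2bp2, and in comparisons of KO with WT these cannot be told apart. The macrophage markers Cd68 and Csf1r and the other genes of that list summed to between 3490 and 4310 TPM in every library, whereas lymphocyte markers reached at most 0.09 TPM, mast cell and basophil markers 0.23 and dendritic cell markers 1.07. Granulocyte markers summed to between 23.8 and 61.2 TPM in WT M0 and between 17.8 and 19.2 in KO M0, and stromal markers to between 10.9 and 21.3 against between 3.39 and 12.6. Both libraries numbered 3 of WT stood apart from the other WT libraries, with a chi-square per degree of freedom (counts of 2 libraries compared over genes) of 37.92 and 22.96 in M0 against 8.29 between the other libraries, and 19.64 and 16.02 in M2 against 5.49. The KO M2 library 1 also stood apart, with 19.17 and 14.34 against 4.86.

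Untreated BMMs carried Rab mRNA over a wide range of levels. In WT M0 the 5 most abundant were Rab11a (479 ± 7.99 TPM, SD, n = 3), which marks recycling endosomes, Rab7 (474 ± 18.4), which drives late endosomes and phagosomes towards lysosomes, Rab5c of early endosomes, Rab1a of the ER-to-Golgi step (295 ± 18.1), and Rab7b (218 ± 24.7), which acts between late endosomes and the Golgi. Together they made up 46.9 to 47.3% of the summed Rab TPM in the 3 WT M0 libraries. A mean of at least 100 TPM was reached by 13 of the 59 genes, 20 lay between 10 and 100 TPM, 10 between 1 and 10, and 16 below 1.

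**Figure D1:**
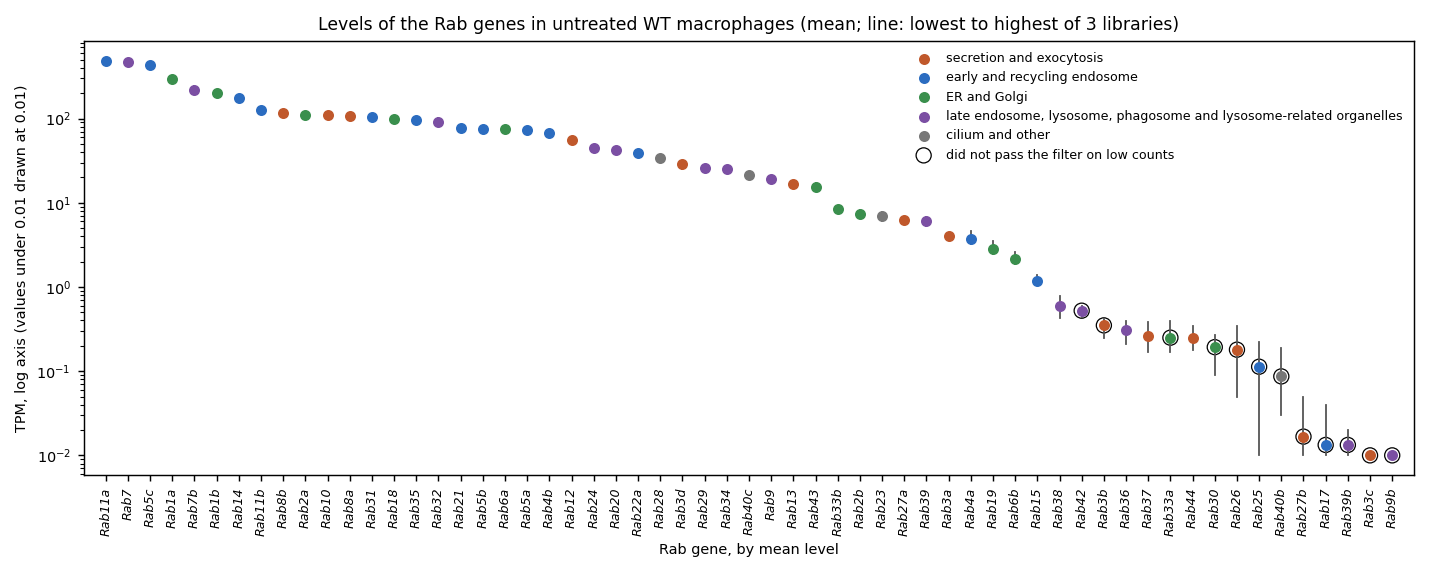
Mean level of each of the 59 Rab genes in untreated WT macrophages in TPM on a log axis, ordered from highest to lowest and coloured by role, with a line from the lowest to the highest of 3 libraries. Rab11a and Rab7 lie near 479 and 474 TPM and the 12 circled genes, which did not pass the filter on low counts, lie below 1 TPM.

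The filter on low counts left 47 Rab genes for testing. The 12 that did not pass were Rab17, Rab25, Rab26, Rab27b, Rab30, Rab33a, Rab39b, Rab3b, Rab3c, Rab40b, Rab42 and Rab9b, and none of them exceeded 0.69 TPM in any library. Several of these have their known sites of expression outside the myeloid lineage, such as Rab17 and Rab25 in epithelia and Rab3b and Rab3c in neurons and endocrine cells. Of the 47, 4 (Rab36, Rab37, Rab38 and Rab44) were below the filter's minimum in an untreated group, and their fold changes rest on few reads. By group, Rab38 and Rab44 reached that minimum only after IL-4 and Rab36 only in IL-4-treated KO cells, so they entered the tables through groups where they are high. These 4 genes and Rab4a are therefore left out of the counts below, which cover the other 42.

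The summed level of the family hardly moved between groups. It was 4027 ± 64.0 TPM in untreated WT cells and 4095 ± 63.8 after IL-4, and 4147 ± 35.2 in untreated KO cells and 4065 ± 21.9 after IL-4 (SD, n = 3 each).

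The first comparison asked how IL-4 altered Rab mRNA in WT cells. IL-4 raised 14 and lowered 8 of these 42 genes in WT at an edgeR adjusted p under 0.05, which is 52.4% beside 50% of all 12846 genes tested (24.9% higher and 25.1% lower). The median log2 fold change was 0.00 for the Rab genes and -0.01 for all genes, and the share called in WT was near that of all genes. The largest rises were those of Rab19 of the Golgi and Rab15 of early endosomes, and the 4 largest falls in each genotype were those of Rab32, Rab27a, Rab7b and Rab39. In KO, IL-4 raised 17 and lowered 13, or 71.4% beside 52.8% of all genes (26.8% higher and 26% lower), and 20 genes were called in both genotypes, each in the same direction. On the TPM scale (limma on log2(TPM + 1)) the KO split was 11 higher and 15 lower. The count was 22 in WT without both libraries numbered 3 of WT, and 25 in KO without the KO M2 library 1. Whichever single KO library was left out, the KO count fell from 30 to between 24 and 26. The share of all genes called in these fits and in the limma fit is not given here. Markers of other cells moved with IL-4 as well. The granulocyte markers Ngp and S100a9 were lower in WT (log2 -1.28 and -0.75, edgeR adjusted p = 0.023 and 0.0485), as 2 of 4 tested of that list, and 0 of 4 were called in KO (0 at an unadjusted p under 0.05), while the dendritic cell marker Zbtb46 rose by 2.54 in WT and 2.45 in KO, in a list that summed to at most 1.07 TPM. Their part in the Rab responses was not tested.

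**Figure D2:**
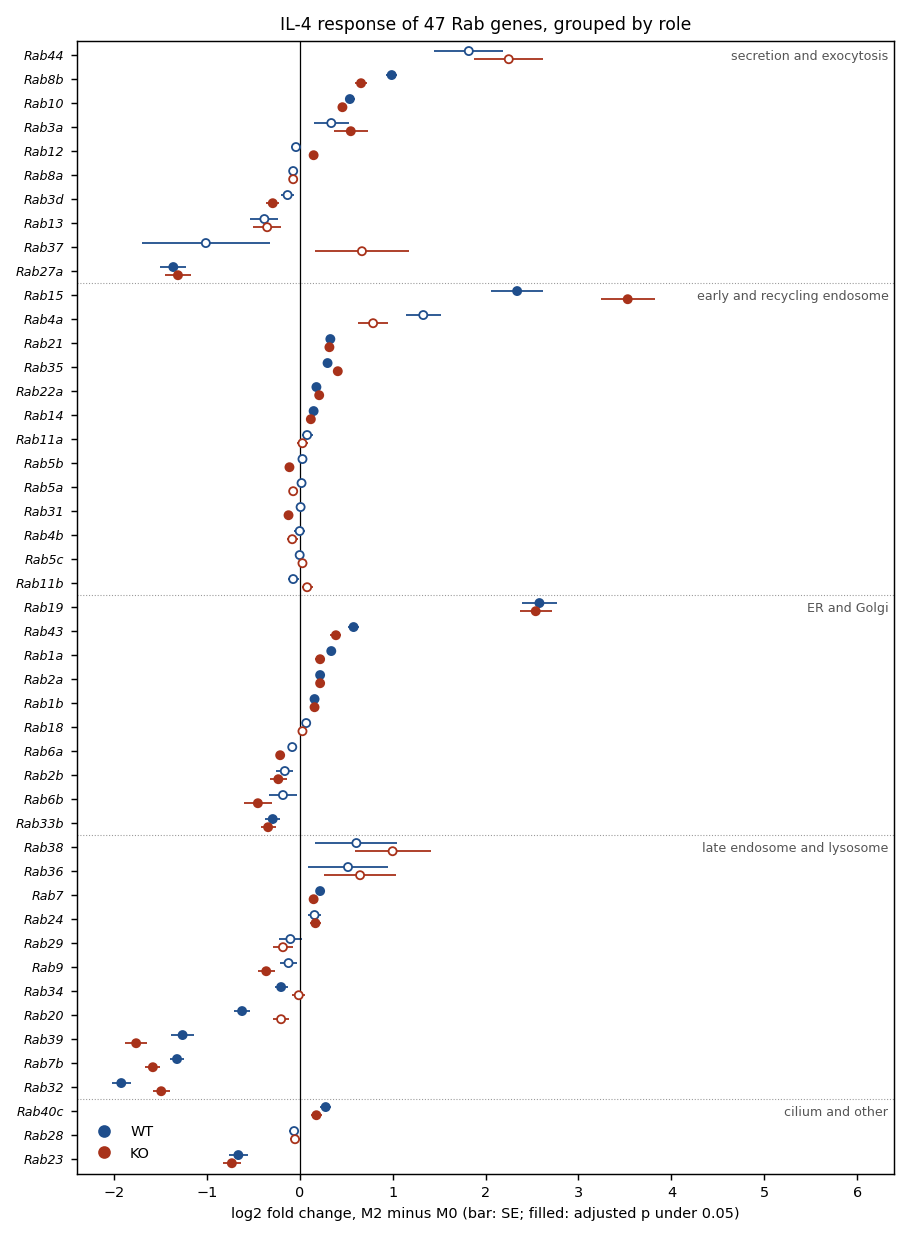
IL-4 response of 47 Rab genes as log2 fold change (M2 minus M0) with its SE, blue for WT and red for KO, grouped by role; filled points have an edgeR adjusted p under 0.05, and Rab4a, Rab36, Rab37, Rab38 and Rab44 are unfilled because no test is given for them. Of the other genes, Rab15 and Rab19 lie farthest to the right and Rab32, Rab7b, Rab39 and Rab27a farthest to the left in both genotypes.

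Among ER and Golgi Rabs, 5 of 10 rose and 1 fell in WT (60.0% called, beside 50% of all genes), and 5 rose and 4 fell in KO (9 of 10, beside 52.8%). Rab19, a Golgi Rab, had the largest rise in WT of all Rab genes called. Its TPM values were 2.62, 2.45 and 3.47 in untreated WT cells and 13.34, 15.40 and 20.06 after IL-4. In KO they were 3.12, 4.19 and 3.83 untreated, and 17.58, 21.62 and 22.68 after IL-4. Every IL-4 library lay above every untreated library. The log2 fold change was 2.58 ± 0.19 in WT (SE, a 5.97-fold rise, edgeR adjusted p = 1.73e-07) and 2.54 ± 0.17 in KO (5.81-fold, edgeR adjusted p = 8.8e-08).

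The other ER and Golgi members moved less. Rab43, which acts at the Golgi, rose from 15.3 ± 1.78 to 21.8 ± 0.723 TPM in WT (log2 fold change 0.58 ± 0.06). Of its annotated exonic bases, 75.4% are shared with Gm45140 on the same strand, a gene for which no value was analysed here. The ER-to-Golgi Rab1a rose by 0.34 ± 0.05 in WT and 0.22 ± 0.05 in KO on the log2 scale, and Rab1b and Rab2a also rose in both genotypes. Rab33b, a Golgi Rab with a part in autophagy, was lowered in both, by 1.22-fold in WT and 1.26-fold in KO. Rab6b, a retrograde Golgi Rab, was lowered in KO (log2 fold change -0.45 ± 0.15, edgeR adjusted p = 0.0202), a call lost without KO M0 library 1 (adjusted p = 0.0948), KO M2 library 2 (0.0549) or KO M2 library 3 (0.0804).

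Of 12 Rabs of early and recycling endosomes, Rab4a left out, 5 rose and none fell in WT (edgeR, with 5 at an unadjusted p under 0.05), or 41.7% called beside 50% of all genes, and 5 rose and 2 fell in KO (58.3%, beside 52.8%). Rab15, an early endosome Rab, had TPM values of 1.06, 1.09 and 1.38 in WT M0 and 4.25, 5.76 and 6.97 in WT M2. KO cells had 0.77, 0.60 and 0.74 TPM in M0, and 4.68, 8.13 and 10.70 in M2. No IL-4 library overlapped an untreated one, and the spread was widest in KO M2. The log2 fold change was 2.34 ± 0.28 in WT (edgeR adjusted p = 1.7e-05) and 3.53 ± 0.29 in KO (adjusted p = 3.95e-07).

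IL-4 signals through STAT6, whose sites are usually written as TTC and GAA with 4 bases between them, while other STAT factors favour a spacing of 3. Promoter sequence (RefSeq, build GRCm38.p6, 250 bases before to 50 after the gene start) was at hand for 48 of the 59 Rab genes, Rab4a and Rab7b not among them. The spacing of 4 was found in 3 of these 48 promoters (6.25%, 8.01% of 27025 genes) and the spacing of 3 in 5 (10.4%, 9.55% of genes). Both motifs read the same on either strand, so 1 search covered both, and the windows of the 2 searches overlapped in none of the genes shown. The windows of Rab15 and Rab19, the genes with the larger rises, are shown on the strand of the gene, with the matched letters in capitals, to let the sites be seen beside the values above:
Rab15, spacing of 4, chr12:76813820-76813849, minus strand: tgtgtaccttTTCCTCAGAAcaaagccaga
Rab15, spacing of 3, chr12:76814049-76814078, minus strand: gtgtttgagcTTCAAAGAAcagctagagta
Rab19, spacing of 3, chr6:39381134-39381163, plus strand: aggaaggatgTTCGATGAAggatgcagagc
The centres of these matches lay 22 bases after, 208 before and 205 before the RefSeq gene start. GENCODE annotation has other outermost starts, at chr12:76822908 for Rab15 and chr6:39381175 for Rab19, so these distances hold for the RefSeq starts alone. Rab11b and Rab5b also held the spacing of 4, and Rab11a, Rab25 and Rab34 the spacing of 3. Of the genes holding the spacing of 4, only Rab15 was called higher with IL-4. The log2 response of Rab11b (-0.07 ± 0.06 for WT, 0.08 ± 0.06 for KO) passed in neither genotype. That of Rab5b did not pass for WT (0.03 ± 0.04) and was a fall for KO (-0.11 ± 0.04). Rab11a was not called, Rab34 was called lower in WT alone, and Rab25 did not pass the filter. The matches are a description of the letters, and their part in the IL-4 responses was not tested.

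Rab4a, which returns receptors from early endosomes quickly to the surface, lies on chromosome 8 (chr8:123805985-123835287, plus strand). Its TPM values were 4.64, 3.24 and 3.36 in untreated WT cells and 10.36, 9.95 and 6.46 after IL-4. In KO they were 10.03, 9.37 and 10.88 untreated, and 18.37, 15.83 and 15.33 after IL-4. The lowest levels were in WT M0 and the highest in KO M2, whereas KO M0 and WT M2 overlapped. After IL-4 the level was 2.51-fold that of untreated cells in WT (log2 fold change 1.33 ± 0.19), with the IL-4 value above the untreated one in 3 of 3 mice, and 1.73-fold in KO (log2 0.79 ± 0.16). Both rest on the libraries whose values chose the gene family, so no test is given. KO exceeded WT by 1.44 ± 0.18 in M0 and 0.91 ± 0.17 in M2 on the log2 scale, values that led to that choice.

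Rab4a was a small share of the Rab4 pair. It made up 5.25 ± 0.851% of the summed Rab4a and Rab4b TPM in untreated WT cells and 12.1 ± 2.46% after IL-4, and in KO 11.6 ± 0.965% untreated and 19.6 ± 1.28% after IL-4 (SD, n = 3). Rab4b, its close relative with a similar role in recycling, was at 67.4 ± 2.31 TPM in WT M0 and 64.7 ± 2.24 in WT M2, and the log2 fold change with IL-4 was 0.00 ± 0.06 in WT and -0.08 ± 0.06 in KO. The log2 ratio of Rab4a to Rab4b moved from -3.86 ± 0.18 to -2.75 ± 0.32 in WT (SD, n = 3), a change of 1.11.

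Counts of Rab4a ranged from 65 to 102 in WT M0 and from 395 to 464 in KO M2, which places it among the less deeply read members. The gene Gm20388 spans Rab4a on the same strand (chr8:119910841-124345722) but shares 0 exonic bases with it. Its level ranged from 0.77 to 17.46 TPM over the 12 libraries, and KO minus WT on the log2 scale was 0.88 ± 0.62 untreated and -0.58 ± 0.62 after IL-4, while the IL-4 response was 0.88 ± 0.63 in WT and -0.57 ± 0.60 in KO. None of these passed edgeR's test (adjusted p = 0.407, 0.639, 0.269 and 0.454). None of the 1752 stretches of 75 bases in Rab4a transcripts, the length of a read, occurred in another gene. The quantifier's own uncertainty of the Rab4a count (posterior SD) was 0 in 12 of 12 libraries, and the weighted transcript length stayed between 1384.78 and 1408.16 nt. For Rab4b, 52.5% of such stretches also occur in the read-through gene Gm21983, which did not exceed 0.75 TPM.

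The relatives within 3 Rab pairs differ enough in coding sequence to be told apart by single reads. Aligned coding bases were identical at 75.0% for Rab4a and Rab4b, 78.2% for Rab8a and Rab8b and 62.3% for Rab7 and Rab7b, and the longest identical coding runs were 23, 17 and 18 bases. The stretch of 24 bases that codes for the phosphate-binding loop, one of the most conserved segments of the family, is shown from the reference coding sequences, with the bases that differ within a pair in capitals:
Rab4a, coding bases 58 to 81: ggAaAtgcGggaactggcaaatcT
Rab4b, coding bases 43 to 66: ggCaGtgcTggaactggcaaatcA
Rab8a, coding bases 43 to 66: ggGgactcGggGgtAggGaagacc
Rab8b, coding bases 43 to 66: ggCgactcCggCgtTggCaagacc
Rab7, coding bases 43 to 66: ggGgACTCtggTgtTggaaagacc
Rab7b, coding bases 43 to 66: ggTgCACTtggCgtGggaaagacc
Even here 4, 5 and 7 of 24 bases differ.

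Smaller rises among endosomal Rabs were found for Rab21, which escorts integrins (0.33 ± 0.04 in WT and 0.32 ± 0.04 in KO, log2), Rab35 of fast recycling (0.30 ± 0.04 and 0.41 ± 0.04), Rab22a and Rab14. Rab5b and Rab31, also early endosome Rabs, were slightly lowered in KO (-0.11 ± 0.04 and -0.12 ± 0.04). Rab5a, which drives fusion of early endosomes, had a log2 fold change of 0.02 ± 0.04 in WT and -0.07 ± 0.04 in KO, and Rab11a had 0.08 ± 0.06 and 0.03 ± 0.06. Neither passed the test in either genotype.

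Among 8 secretory Rabs, 2 rose and 1 fell in WT (37.5% called, beside 50% of all genes), and 4 rose and 2 fell in KO (75.0%, beside 52.8%). Rab8b, which takes cargo from the Golgi and recycling endosomes to the plasma membrane, had TPM values of 119.68, 114.41 and 110.60 in WT M0 and 234.19, 219.30 and 202.29 in WT M2. KO cells had 138.82, 139.40 and 141.10 TPM in M0, and 182.05, 220.69 and 224.68 in M2. All IL-4 libraries lay above all untreated ones, and the KO M0 libraries lay above the WT M0 libraries. The rise was 1.99-fold in WT (log2 0.99 ± 0.06, edgeR adjusted p = 5.43e-08) and 1.58-fold in KO (log2 0.66 ± 0.06, adjusted p = 1.95e-06).

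Its paralog Rab8a did not pass the test, with a log2 fold change of -0.07 ± 0.04 in each genotype. The ratio of Rab8b to Rab8a rose by 0.87 on the log2 scale over both genotypes, a description with no test, since the pair was set side by side with the change of Rab8b known. Rab10, an exocytic Rab that also brings TLR4 to the surface of macrophages, rose 1.46-fold in WT and 1.37-fold in KO. Rab44, a large Rab with a calcium-binding region, was at 0.247 ± 0.0833 TPM in WT M0 and 0.730 ± 0.139 in WT M2, and at 0.127 ± 0.0874 and 0.643 ± 0.178 in KO (SD, n = 3). These too are given without a test.

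Rab27a, which docks secretory lysosomes and exosome-bearing endosomes at the plasma membrane, was the secretory Rab that IL-4 lowered in WT. Its TPM values were 5.94, 6.48 and 6.24 in WT M0 and 1.93, 2.0 and 2.59 in WT M2. The KO values were 5.49, 5.61 and 5.77 in M0, and 1.92, 1.73 and 2.83 in M2. The groups did not overlap within a genotype, and the level was 2.56-fold lower in WT (log2 fold change -1.36 ± 0.14, edgeR adjusted p = 5.34e-06) and 2.48-fold lower in KO (log2 -1.31 ± 0.14, adjusted p = 3.89e-06).

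Of 9 Rabs of late endosomes, phagosomes and lysosome-related organelles, 5 fell and 1 rose in WT (66.7% called, beside 50% of all genes), and 4 fell and 2 rose in KO (66.7%, beside 52.8%). Rab32, which serves lysosome-related organelles and the delivery of antimicrobial cargo to phagosomes, had TPM values of 82.41, 93.39 and 100.31 in WT M0 and 21.60, 22.47 and 26.09 in WT M2. The KO values were 83.41, 83.75 and 74.49 in M0, and 26.20, 27.37 and 27.80 in M2. The IL-4 libraries lay far below the untreated ones in both genotypes. The level was 3.78-fold lower in WT (log2 fold change -1.92 ± 0.10, edgeR adjusted p = 5.2e-09) and 2.81-fold lower in KO (log2 -1.49 ± 0.09, adjusted p = 3.53e-08).

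Rab7b had TPM values of 245.65, 210.88 and 197.95 in WT M0 and 92.38, 84.24 and 75.78 in WT M2. In KO they were 254.39, 249.08 and 256.09 in M0, and 85.01, 76.76 and 80.03 in M2. It was thus among the 5 most abundant Rabs before IL-4 and below the level of Rab8a after it in every library. The fall was 2.50-fold in WT (log2 -1.32 ± 0.08, edgeR adjusted p = 2.43e-08) and 2.99-fold in KO (log2 -1.58 ± 0.08, adjusted p = 4.42e-09). Rab7, in contrast, rose slightly (log2 0.22 ± 0.04 in WT and 0.15 ± 0.04 in KO), and the log2 ratio of Rab7b to Rab7 fell by 1.61 over both genotypes, again given without a test.

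Rab39, which takes part in phagosome acidification and autophagy, fell from 6.08 ± 0.687 to 2.41 ± 0.332 TPM in WT and from 6.59 ± 0.469 to 1.83 ± 0.255 in KO. Rab20, a Rab of phagosome maturation, had 40.14, 40.82 and 45.73 TPM in WT M0 and 30.13, 23.17 and 25.33 in WT M2, a fall of 1.54-fold (edgeR adjusted p = 0.000115). In KO its values were 40.77, 42.63 and 39.49 in M0 and 31.90, 34.83 and 34.62 in M2, where the log2 fold change of -0.20 ± 0.09 did not pass (adjusted p = 0.0804). On the TPM scale it did (limma on log2(TPM + 1), adjusted p = 0.0239). Of the exonic bases of Rab20, 25.6% are shared with an RNA gene on the opposite strand.

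Of the remaining late endosomal members, Rab34, which positions lysosomes, was lower in WT after IL-4 by a margin that several alternatives did not keep (log2 -0.20 ± 0.07, adjusted p = 0.0305, and 0.107 without WT M0 library 3), and had -0.01 ± 0.07 in KO. Rab9, which returns mannose 6-phosphate receptors to the Golgi, was lowered in KO (log2 -0.36 ± 0.09) and had -0.12 ± 0.09 in WT. The sparse Rab36 and Rab38 had log2 values of 0.52 ± 0.43 and 0.61 ± 0.44 in WT, and of 0.65 ± 0.39 and 1.00 ± 0.41 in KO, given without a test for the reason stated above. Outside these groups, Rab23, known from the cilium and Hedgehog signalling, was lowered 1.58-fold in WT and 1.66-fold in KO.

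**Figure D3:**
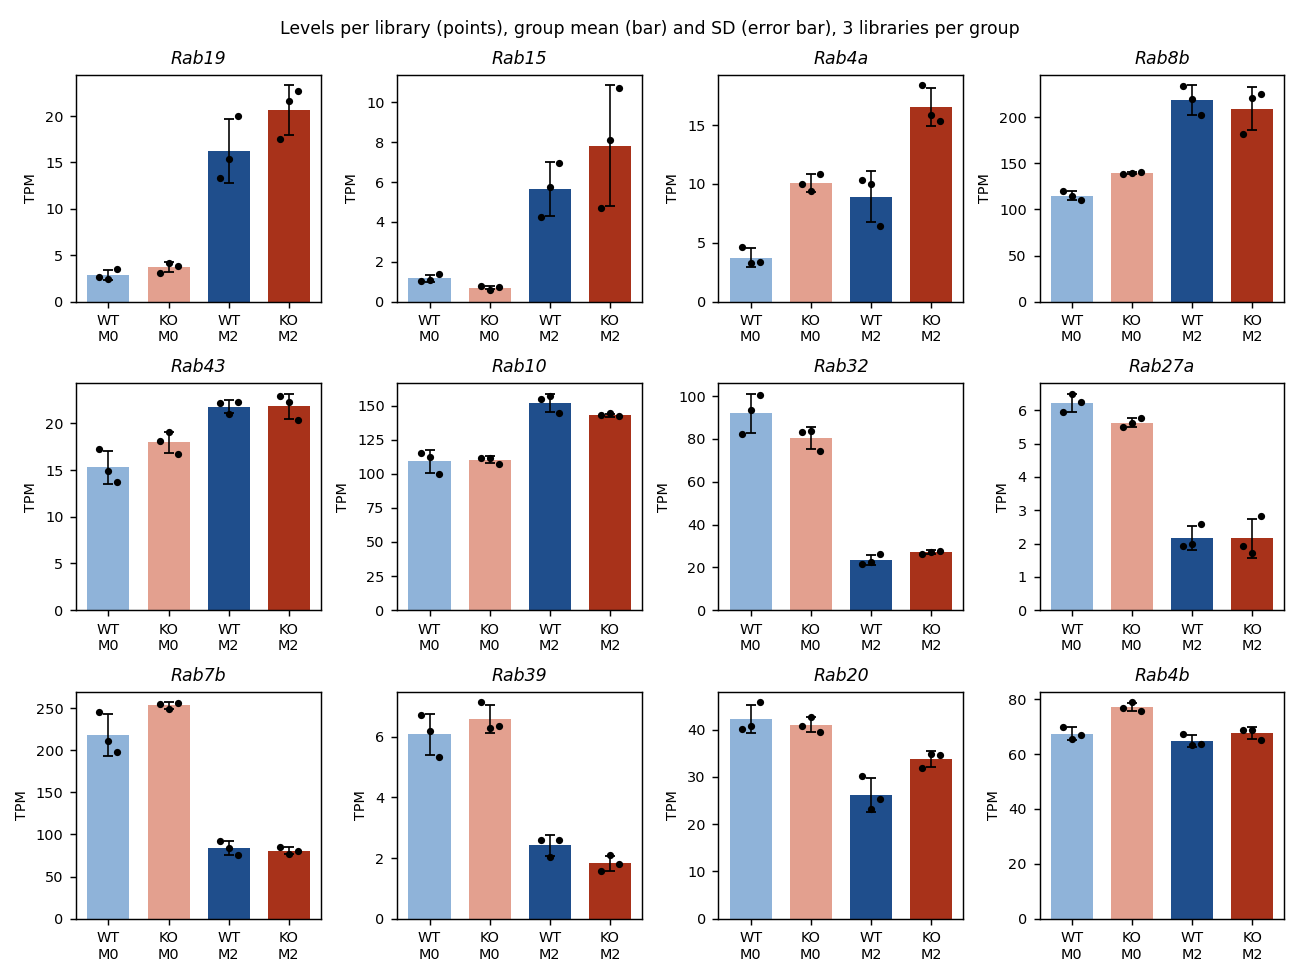
Levels in TPM of 12 Rab genes in each library (points) with the group mean (bar) and SD (error bar), for both genotypes without (M0) and with IL-4 (M2), 3 libraries each. Each axis starts at 0. Rab19, Rab15, Rab8b, Rab43 and Rab10 stand higher and Rab32, Rab27a, Rab7b, Rab39 and Rab20 lower in the IL-4 groups, while Rab4b stays between 63.20 and 78.81 TPM.

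The second comparison set KO against WT. In M0, 1 of the 42 Rab genes (2.38%) was past the threshold, beside 9.78% of all genes. Since the difference between the genotypes led to the choice of the family, this count and that in M2 are a description and nothing is read from them. The gene was Rab8b, with a log2 difference of 0.29 ± 0.06, and it was not past the threshold under 5 of 15 alternatives, among them the omission of WT M0 library 2, KO M0 library 2 or KO M0 library 3. The median over the 42 genes was 0.04. Without both libraries numbered 3 of WT the count was 5, with Rab3d, Rab1a, Rab19 and Rab4b added. The granulocyte markers S100a9, Ngp and Ltf were lower in KO M0, as 3 of the 4 genes tested of the 8 in that list, of which Ly6g was at 0 in every library. Their part in the Rab differences was not tested.

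In M2, 1 of the 42 was past the threshold (2.38%, beside 2.68% of all genes). Rab20 was at a level 1.31-fold higher in KO (log2 0.39 ± 0.09), and the KO libraries lay above all WT libraries. It was not past the threshold under 9 of 15 alternatives, among them the omission of KO M2 library 2 or WT M2 library 2. Rab8b had -0.04 ± 0.06 in M2. Granulocyte markers, at 14.2 to 36.1 TPM in IL-4-treated WT cells and 13.7 to 19.1 in KO cells, had no gene called here (edgeR, 0 of 4 tested, with 2 at an unadjusted p under 0.05). Stromal markers did not overlap, at 12.2 to 22.8 TPM in WT and 3.18 to 10.8 in KO, and none of that list was called either (edgeR, 0 of 4 tested, with 3 at an unadjusted p under 0.05). Their part in the difference of Rab20 was not tested.

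**Figure D4:**
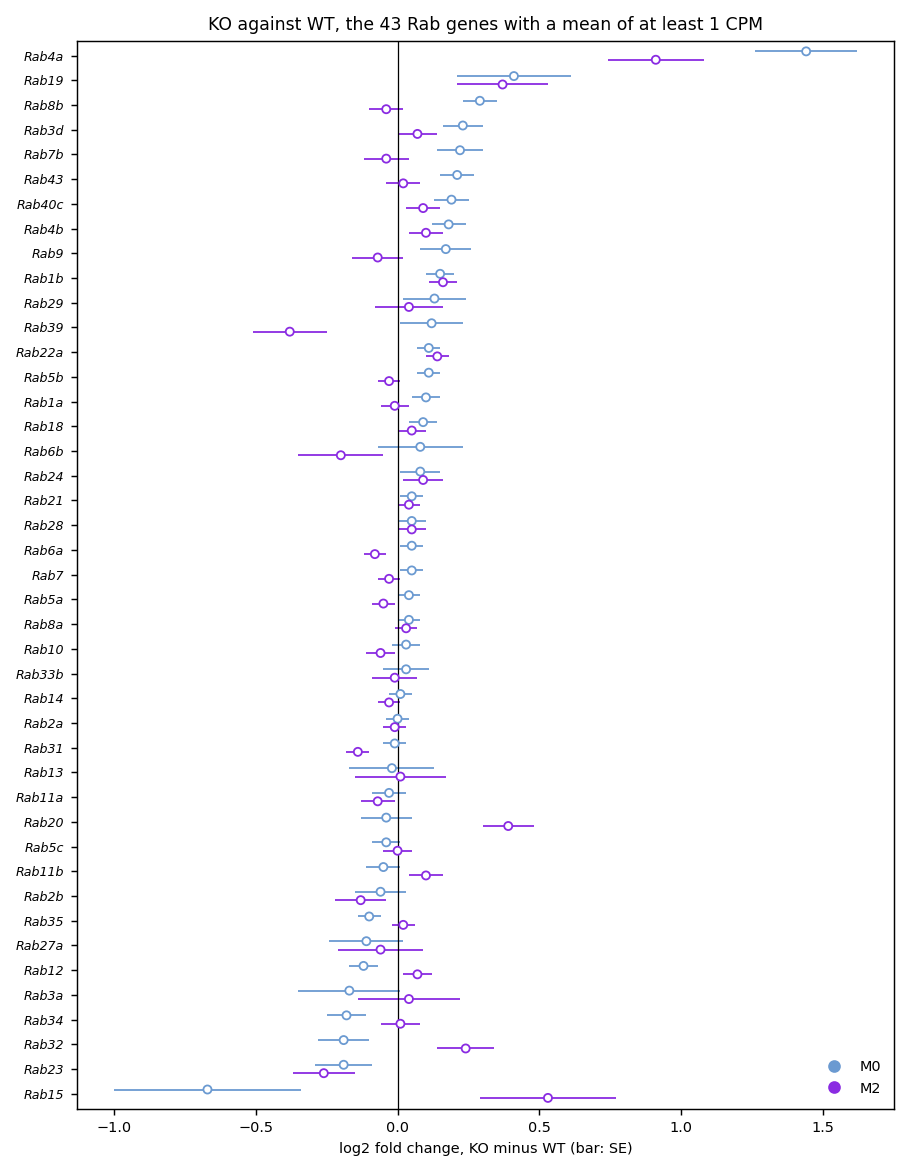
Difference between KO and WT for the 43 Rab genes averaging at least 1 CPM (counts scaled by library size), as log2 fold change with its SE, light blue in M0 and purple in M2; the values are a description, with no test marked. Rab4a lies at 1.44 and 0.91 and Rab20 in M2 at 0.39.

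The third comparison asked whether the IL-4 response itself differed between the genotypes. No Rab gene passed edgeR's test of that difference (0 of 42, beside 3.24% of all genes), although 10 had an unadjusted p under 0.05, beside 17.8% of all genes. The nearest were Rab8b, whose rise was smaller in KO (log2 difference -0.33 ± 0.09, adjusted p = 0.0673), Rab20 (0.43 ± 0.13, 0.0967) and Rab32 (0.43 ± 0.13, 0.102), both with a smaller fall in KO. With the mouse as a replicate block, 3 genes passed, beside 7.81% of all genes: Rab8b (adjusted p = 0.0226), Rab32 (0.0104) and Rab15, whose rise was larger in KO. DESeq2 called 4 (beside 7.19% of all genes) and limma on log2(TPM + 1) called 0. For Rab4a the difference of -0.53 ± 0.25 is given without a test.

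The proteins that act on Rabs were read from a list of 123 genes, of which 117 passed the filter. Of these, 2 (Dennd3 and Tbc1d10c) were below the filter's minimum in some group, and they are kept in the counts of this list. Dennd3, at a mean of 0.32 CPM, is among the genes called lower with IL-4 in KO (log2 -1.47 ± 0.51, edgeR adjusted p = 0.028). Its mean TPM went the other way, from 0.227 in KO M0 to 0.303 in KO M2, so nothing is read from that call. In WT, 37 rose and 28 fell with IL-4 (55.6%, beside 50% of all genes), and in KO 33 rose and 31 fell (54.7%, beside 52.8%). On the TPM scale (limma on log2(TPM + 1)) the split was 31 higher and 29 lower in WT, and 21 higher and 29 lower in KO. Of 53 genes called in both genotypes, 52 moved in the same direction.

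Among the 35 exchange factors, 9 rose and 7 fell in WT (45.7%, beside 50% of all genes), and 9 rose and 9 fell in KO (51.4%, beside 52.8%). The 9 that fell in KO include the sparse Dennd3, from which nothing is read. Rab3il1, which activates Rab8 proteins, rose from 63.9 to 289 TPM in WT and from 59.0 to 296 in KO (log2 2.24 ± 0.06 and 2.41 ± 0.06). Dennd1a, an activator of Rab35, rose by 1.28 ± 0.10 and 1.14 ± 0.09, and Dennd4c, an activator of Rab10, by 1.08 ± 0.10 and 0.63 ± 0.10. Dennd2c, Rab3ip and Madd, the latter an activator of Rab3 and Rab27 proteins, were lowered in both genotypes.

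Of 31 TBC proteins, 14 rose and 6 fell in WT (64.5%, beside 50% of all genes), and 11 rose and 6 fell in KO (54.8%, beside 52.8%). Tbc1d16, which switches off Rab4a, rose from 2.76 to 14.9 TPM in WT and from 2.45 to 17.8 in KO (log2 2.49 ± 0.14 and 2.94 ± 0.14). Tbc1d9b rose by 1.22 ± 0.05 and 1.16 ± 0.05, and Tbc1d1, which acts on Rab10, by 0.88 ± 0.06 and 0.80 ± 0.06. Usp6nl, which switches off Rab5, was lowered by more in KO (-0.94 ± 0.12) than in WT (-0.38 ± 0.13), a difference that did not pass (adjusted p = 0.112).

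Of 43 effectors tested, 13 rose and 12 fell in WT, and 12 rose and 13 fell in KO (58.1% in each, beside 50% and 52.8% of all genes). Rab11fip5, a partner of Rab11, rose from 24.3 to 88.9 TPM in WT, and the early endosomal Rbsn, a partner of Rab4 and Rab5, and Appl1 rose by 1.04 ± 0.06 and 1.00 ± 0.07. Ehd1, which drives recycling, fell from 299 to 159 TPM, and Lrrk2, a kinase that phosphorylates Rab8 and Rab10, was lowered in WT (log2 -1.06 ± 0.15), with a lower level after IL-4 in the mice numbered 1 and 2 but 3.34 TPM before and 4.43 after it in the third. Of 8 genes for prenylation and membrane delivery, Gdi2, which extracts Rabs from membranes, was slightly lowered in both genotypes (-0.09 ± 0.04 in WT and -0.12 ± 0.04 in KO). In WT the calls of Gdi2 and Usp6nl were lost under 9 and 7 of 15 alternatives, and that of Lrrk2 under 2, both limma fits on TPM (log2 -0.64 and adjusted p = 0.0668 at the weakest).

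**Figure D5:**
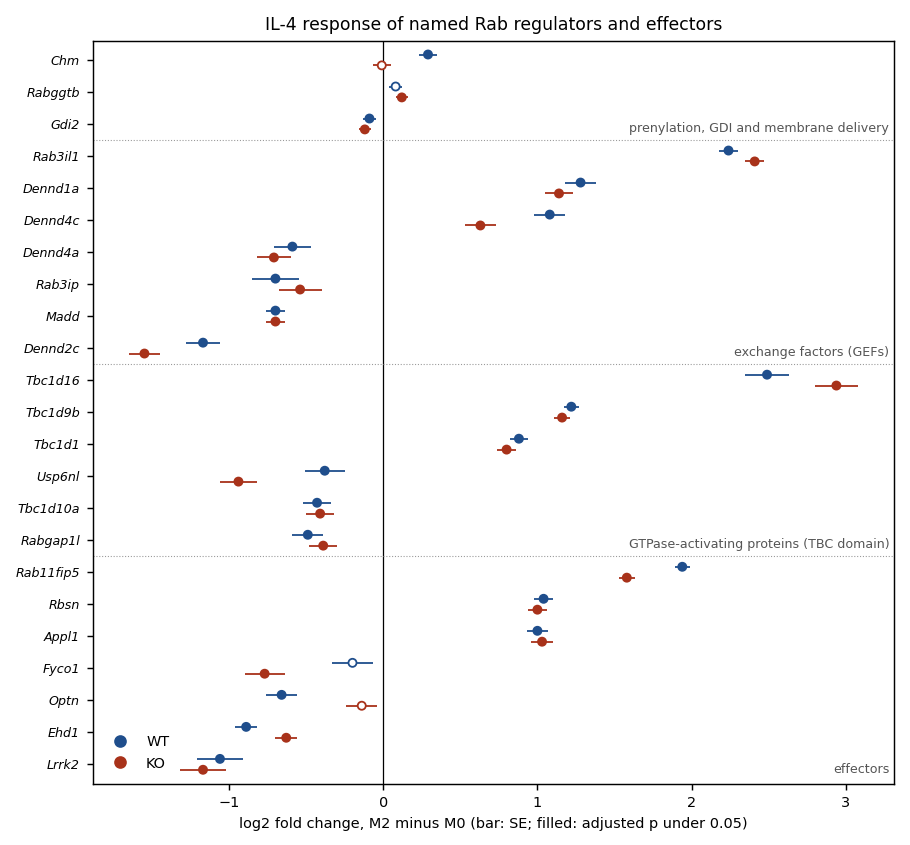
IL-4 response of 23 Rab regulators and effectors as log2 fold change (M2 minus M0) with its SE, blue for WT and red for KO, grouped by class; filled points have an edgeR adjusted p under 0.05. Rab3il1, Tbc1d16 and Rab11fip5 lie farthest to the right, and Dennd2c and Lrrk2 farthest to the left.

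Between the genotypes, 12 of the 117 were higher and 2 lower in KO M0 (12.0%, beside 9.78% of all genes), and 2 were higher and 1 lower in M2 (2.56%, beside 2.68%). These counts moved with the processing, and the share of all genes called under each alternative is not given beside them. In M0 the 14 became 9 without WT M0 library 2, 7 with limma and 23 with DESeq2. In M2 the 3 became 0 with limma or without WT M2 library 2, KO M2 library 2 or KO M2 library 3, and 8 without both libraries numbered 3 of WT. In M0 the largest rises, leaving out genes under 5 CPM, were Dennd1b, an activator of Rab35 (log2 0.61 ± 0.08), Mical1 (0.58 ± 0.14), Tbc1d9 (0.56 ± 0.09), Tbc1d2, which acts on Rab7 (0.54 ± 0.10), and Appl2 (0.51 ± 0.06). Dennd4c, Tbc1d8, Tbc1d22a, Tbc1d24, Rab11fip5, Unc13d and Rubcn were higher by 0.25 to 0.36, and Optn, a partner of Rab8, and the sparse Rab11fip4 were lower (-0.61 ± 0.09 and -1.21 ± 0.22). Tbc1d2 and Tbc1d8 were also higher in KO M2 (0.60 ± 0.10 and 0.40 ± 0.06), and Rab11fip1 was lower there (-0.32 ± 0.06). The M0 call was lost under 9 of 15 alternatives for each of Dennd4c and Tbc1d24, under 7 for Mical1, 5 for Rubcn, 4 for Unc13d and 2 for each of Tbc1d8 and Rab11fip4 (whose value ran from -1.37 to -0.18), and the M2 call under 5 for each of Tbc1d2 and Tbc1d8 and under 7 for Rab11fip1.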

How the data were processed

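Poly(A) RNA of 12 BMM cultures was sequenced by the authors as single reads of 75 nt from a directional library kit. They deposited, for each library, expected counts (estimated counts per gene, not normalized) and TPM values. The study's methods name the Grape-nf pipeline, run with Nextflow; its quantifier and strand setting are not given in the sources used here. Builds GRCm38 and mm10, FastQC 0.11.2 and DESeq2 1.40.2 are named in the submitters' processing notes. The authors' tables of comparisons also hold fold changes and p-values, from which gene symbols alone were taken.

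Expected counts were rounded, filtered by group (filterByExpr) and tested with edgeR 4.0.16 (quasi-likelihood, TMM scaling, R 4.3.3), with 4 groups in 1 fit over 12 libraries and Benjamini-Hochberg adjustment over 12846 genes. SE is the log2 fold change divided by the root of F. p-values measure the spread between cultures of 3 mice per group. On simulated counts with 200 genes changed by 1 on the log2 scale, 70.5% (difference of responses) to 88.5% (IL-4 in KO) were recovered. Levels were read from the deposited TPM. Alternatives were DESeq2 1.42.0, limma 3.58.1, other scalings and filters, single libraries left out and a replicate block. The main fit held no term for the mouse, so its p-values take the M0 and M2 libraries as independent. Only in the mouse block and where values are given by mouse were M0 and M2 libraries of one number treated as one mouse. Their deviations from the group means correlated at 0.103 to 0.364, while those of WT and KO libraries of one number did not (-0.068 to 0.04). Overlaps and transcripts came from GENCODE annotation of GRCm38.

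The Rab genes, the role, regulator and marker lists and the comparisons were chosen with earlier results of these data known. Genes named are Rab4a and Rab4b, per IL-4 response up to 8 Rab genes per direction with the largest called change at a mean of at least 5 CPM (counts scaled by library size), every Rab gene called between genotypes, the 5 most abundant in WT M0, Rab5a, Rab7 and Rab11a, those not tested, and up to 3 regulators per list and direction; other names were added after their values were seen. Counts of Rab genes leave out Rab4a and 4 genes under the filter's minimum in a group, a choice made after their values were seen. Some genes that this rule or the lists hold are not reported here.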

Additional observations from a re-analysis of the deposited data

Results flagged for a closer look

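The IL-4 response of 5 of 117 Rab regulators and effectors differed between the genotypes by edgeR's test of the difference (KO minus WT, log2), which is 4.27% beside 3.24% of all genes, a share near that of all genes, and no Rab gene with a test did. The count was 12 with the mouse as replicate block or with DESeq2, 0 with limma, and 1 to 12 with 1 library left out (1 without WT M0 library 2, 12 without WT M0 library 1, 2 without KO M0 library 2, WT M2 library 2 or KO M2 library 3, and 3 without KO M0 library 1, KO M0 library 3 or KO M2 library 1). Of all genes, 7.81% were called for this difference with that block, 7.19% with DESeq2 and 0.88% with limma. Dennd1b differed by -0.67 (adjusted p = 0.00741), with a rise in WT and a fall in KO. Tbc1d2b differed by -0.38 (adjusted p = 0.0336), a call lost under 9 of 20 alternatives. Rab11fip5 differed by -0.36 (adjusted p = 0.0187), lost under 6 of 20. Appl2 differed by -0.43 (adjusted p = 0.021), lost under 4 of 20. The sparse Rab11fip4, at a mean of 1.7 CPM, differed the other way, by 1.30 (adjusted p = 0.0339), lost under 11 of 20. With limma on log2(TPM + 1) none of these 5 passed (adjusted p = 0.132, 0.158, 0.0576, 0.139 and 0.719). Groups held 3 libraries, too few for a test of single outlying values.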

How the results depend on the processing

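The IL-4 calls among the 42 Rab genes ranged from 21 to 25 in WT and from 24 to 32 in KO over all alternatives, beside 22 and 30. Counts between genotypes were small and moved with most choices. The share of all genes called in M0 or M2 under each choice is not given, so a general shift cannot be told apart from one of the Rab genes. In M0 (1 as reported) DESeq2 gave 5, no filter 2, the library number as replicate block 3, and the fit without both libraries numbered 3 of WT, chosen after seeing the data, 5; leaving out 1 library gave 0 to 4 (4 without WT library 1, 3 without WT library 3, and 0 without WT library 2, KO library 2 or KO library 3). In M2 (1 as reported) DESeq2 gave 3, limma 0 on log2(TPM + 1) and on log2(TPM + 0.1), the replicate block 0, the 6 libraries alone 0 and the fit without both WT libraries 4; leaving out 1 library gave 0 to 1 (1 without WT library 1 and 0 without any other). For the difference of the IL-4 responses (0 as reported) DESeq2 gave 4, the mouse as replicate block 3 and the fit without both WT libraries 1; leaving out 1 library gave 0 to 1 (1 without WT M0 library 1, WT M2 library 1, WT M2 library 3 or KO M2 library 1). Among the regulators the block moved the difference of the responses from 5 calls to 12 and no other count by over 1.5 times. Over all genes the same block moved the share called for this difference from 3.24% to 7.81%. The cause was not tested. Of 1615 tested values of named genes under alternatives, 1461 kept direction and side of the threshold, 139 lost and 13 gained a call, and 2 reversed, both for Rab34 in KO with IL-4 (0.01 without KO M0 library 1 and 0.03 without KO M2 library 2, against -0.01 as reported and a lowest value of -0.04 with 1 library left out). Of 108 values of Rab4a and Rab44, which have no test, 103 moved by less than the SD between replicates and 5 by more. Rab4a in KO against WT in M0 lay between 1.23 and 1.61 in all alternatives. These are refits of the libraries whose values chose the family, so the range is a description and lends the rise no support. Where 1 library of an arm was left out, the other groups shared the estimate of the spread. Depth limits the values below 1 TPM.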
